A study of Homo sapiens with 9 samples.

Results

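Antioxidant and glutathione genes were followed in K562 cells, a chronic myeloid leukaemia line of erythroid character that carries the BCR-ABL1 fusion kinase. The members are the 10 genes TXNRD1, TXN, NQO1, GCLC, GCLM, SRXN1, PRDX1, PRDX2, GPX1 and CAT, out of 22384 Gencode release 44 genes with at least 1 read pair. They were chosen by name, and a read pair was counted for a member when both of its ends lay on the gene's strand within 1 kb of the gene body on hg38. Cells without the drug received DMSO, the vehicle, and the treated cells received 1 µM imatinib, an inhibitor of the fusion kinase, for 24 h. Each condition had 2 TIF-Seq2 libraries, so there were 4 libraries in all, and both conditions were of the same unmodified cell line. The methods of the study call the replicates of each condition biological, and the p-values measure the spread between these libraries.

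TIF-Seq2 joins the capped 5′ end and the polyadenylated 3′ end of 1 RNA molecule in a read pair, so that a transcription start and a poly(A) site are read from the same transcript. A count is a number of de-duplicated read pairs, that is, of molecules, and levels are given as CPM, read pairs per 1000000 pairs of the library after TMM scaling. The libraries held 2263121 to 5135829 read pairs and 15358140 in all, of which the 10 members had 37247, or 0.243%. The 2 DMSO libraries correlated across genes at r = 0.978 and the 2 imatinib libraries at r = 0.952 on the log scale. Of 8 K562 markers, 8 were measured and 6 rose after imatinib by edgeR's quasi-likelihood test, among them the erythropoietin receptor gene EPOR. Over all genes tested, 8.69% rose by the same test. With the replicate number as a block, 4 of the 6 markers kept the call. The summed level of the 8 ran from 4026 to 4813 CPM in DMSO and from 10515 to 11519 in imatinib. Most of that sum came from 1 gene in every library. Of 9 genes of other lineages, CD3E, MS4A1, CD14 and NCAM1 were at 0, LYZ and EPCAM had pairs in every library without passing the test, and the summed level ran from 254 to 287 in DMSO and from 160 to 216 in imatinib.

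The members form the enzymes that remove peroxides and keep thiols reduced. Thioredoxin (TXN) reduces disulfides in proteins and is recharged by thioredoxin reductase (TXNRD1), peroxiredoxins (PRDX1, PRDX2) reduce peroxides with electrons from thioredoxin, and sulfiredoxin (SRXN1) repairs over-oxidised peroxiredoxins. Glutathione is made in a first step by glutamate-cysteine ligase, whose catalytic and modifier subunits are GCLC and GCLM, and glutathione peroxidase 1 (GPX1) spends it on hydrogen peroxide. Catalase (CAT), a haem enzyme, splits hydrogen peroxide without drawing electrons from glutathione or thioredoxin, and NQO1 reduces quinones. Many of these genes are targets of the transcription factor NRF2, which binds antioxidant response elements and is held in check by KEAP1. Red cell precursors are known for high catalase and peroxiredoxin 2.

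After imatinib, CAT rose and NQO1 fell, and the other tested members did not pass the threshold. Of the 10 members, 9 had enough pairs to be tested and GPX1 had not. With edgeR's quasi-likelihood test and an adjusted p under 0.05 over all genes, 1 member was higher, against 8.69% of the 12135 genes tested, and 1 was lower, against 6.15% of them. None of the 9 passed with a log2 fold change beyond 1.5, at an adjusted or an unadjusted p, against 9.72% of all genes at an adjusted p, and none did with DESeq2. The median log2 fold change was 0.034 over the 9 members and 0.027 over all genes. In the plot of changes the 2 members past the threshold lie at opposite ends.

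**Figure D1:**
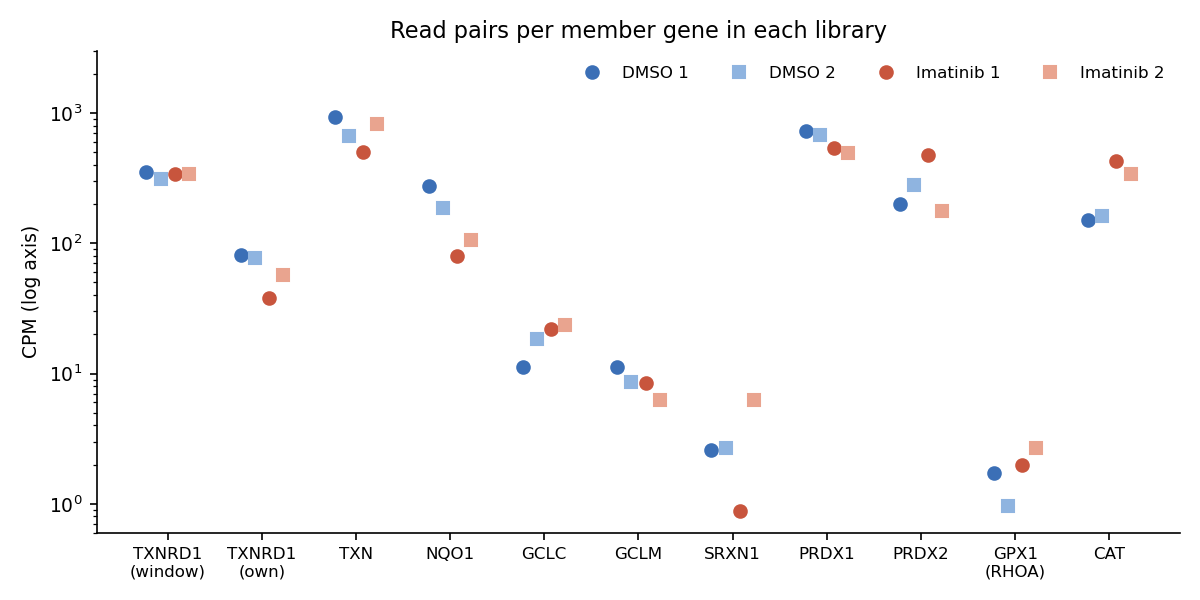
Level in CPM (log axis) of each member in the 4 libraries, with TXNRD1 shown both for its whole window and for its own pairs, and GPX1 for the RHOA pairs its window held. Only CAT, with 341 to 426 in imatinib against 150 to 162 in DMSO, and NQO1, with 80.5 to 105 against 186 to 276, passed the test.

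CAT had 150 and 162 CPM in the DMSO libraries and 426 and 341 in the imatinib libraries, from 521, 843, 1925 and 767 pairs. Both imatinib libraries lay above both DMSO libraries, and how often conditions separate like this over all genes was not counted. The log2 fold change was 1.30 ± 0.26 (SE, n = 2 libraries per condition, edgeR adjusted p = 0.0132), a 2.45-fold rise. With the replicate number as a block it was 1.29, with an edgeR adjusted p of 0.0545. Without DMSO replicate 1 the adjusted p was 0.117 and without DMSO replicate 2 it was 0.0886, with log2 fold changes of 1.22 and 1.33. Of the 8 K562 markers, 6 rose too and 2 did not pass, and the part of the markers in the rise was not tested. In such bulk samples, a change in the number of cells of a type and a change in RNA per cell cannot be told apart.

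The start of CAT transcripts was not a single base. A start region is a run of 5′ positions with at least 3 pairs each that lie at most 100 bp apart, and the main one of CAT, chr11:34438890-34439059, held 3383 of 4056 pairs, or 83.4%. Its most used base, 34438941, took 14.1% of the pairs and lies 7 bp inside the first exon of CAT-201. In this region alone the log2 fold change was 1.31 ± 0.26 (edgeR adjusted p = 0.0102), and it too lost the call without either DMSO library, at adjusted p = 0.109 and 0.0615. The other 14 start regions of the gene held at most 35 pairs each, and starts inside the last exon, away from annotated starts, made up 7.91% of the pairs. Nearly all molecules, 98.5%, ended within 25 bp of 34472056, which lies 4 bp before the annotated end. Of the 6 annotated groups of starts, 4 had at least 20 pairs, and the most used after CAT-201 was that of CAT-202, with 6, 9, 41 and 6 pairs within 100 bp, most of them in imatinib replicate 1. Start usage, the share of a region among the gene's start regions, could be tested only between 2 regions. These were the main one and 34468299-34468338, with 27 pairs, and the adjusted p was 0.963 (edgeR diffSpliceDGE).

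NQO1 went the other way. It had 276 and 186 CPM in DMSO and 80.5 and 105 in imatinib, from 954, 969, 364 and 237 pairs. The log2 fold change was −1.32 ± 0.30 (SE, n = 2, edgeR adjusted p = 0.0215), a 2.49-fold fall. With the replicate number as a block the log2 fold change was −1.30, with an edgeR adjusted p of 0.0644. Without DMSO replicate 1 it was −1.03 with an adjusted p of 0.182.

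NQO1 used a sharp promoter. Its main start region, chr16:69726448-69726646, held 93.0% of the pairs, and 3 neighbouring bases, 69726560, 69726558 and 69726562, took 44.3%, 14.6% and 13.2%. The first of them is the annotated start of NQO1-201. The region's log2 fold change was −1.26 ± 0.30 (edgeR adjusted p = 0.0230), and without DMSO replicate 1 the adjusted p was 0.228.

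NQO1 molecules from this promoter ended at alternative poly(A) sites 1.44 kb apart, shown here as 30 bases with the last transcribed base before the capitals, which are the 10 genomic bases that follow. The upstream site, chr16:69710835-69710864 on the minus strand, has a poly(A) signal AATAAA 15 nt before the end, and the downstream site, chr16:69709394-69709423, has it 18 nt before.
NQO1 upstream: ataaatgagagggaatcgacTGTATTCGTG
NQO1 downstream: aaattcatttctacagacccACACTCATTG
The downstream site took 15.0% (137 of 914 pairs, 95% Wilson interval 12.8 to 17.5) and 14.7% (139 of 945, 12.6 to 17.1) of the pairs at both sites in DMSO. In imatinib it took 6.37% (23 of 361, 4.28 to 9.38) and 13.8% (32 of 232, 9.94 to 18.8). The first imatinib library was low and the second was within the DMSO intervals, so the conditions did not separate (poly(A) site usage, edgeR diffSpliceDGE adjusted p = 0.712). Intervals cover counting error only.

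The level of TXNRD1 depended on which pairs were counted. Its window held 1209, 1619, 1525 and 763 pairs in DMSO 1, DMSO 2, imatinib 1 and imatinib 2, or 349, 311, 337 and 339 CPM, and the log2 fold change was 0.034 ± 0.24 (edgeR adjusted p = 0.941). Of these 5116 pairs, 4128, or 80.7% (79.6 to 81.7), were nearest at both ends to an annotated processed pseudogene at chr12:104265309-104265836, on the same strand inside the TXNRD1 gene. Only 981 pairs were nearest to a TXNRD1 transcript.

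The pseudogene locus gave pairs of 617 bp median span. It had 268, 234, 299 and 281 CPM in the 4 libraries, and the log2 fold change of 0.22 ± 0.25 did not pass (edgeR adjusted p = 0.594). A processed pseudogene is a copy of a spliced messenger, and whether these pairs came from this locus or from RNA of a like sequence elsewhere was not tested.

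With only its own pairs, TXNRD1 had 279, 401, 173 and 128 pairs, or 80.6, 77.1, 38.3 and 56.9 CPM. The log2 fold change was −0.73 ± 0.30, which did not pass (edgeR adjusted p = 0.133). The direction for the whole window was also reversed without the low-count filter, with DESeq2 and without DMSO replicate 2, in each case within 0.1 of 0 on the log2 scale.

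**Figure D2:**
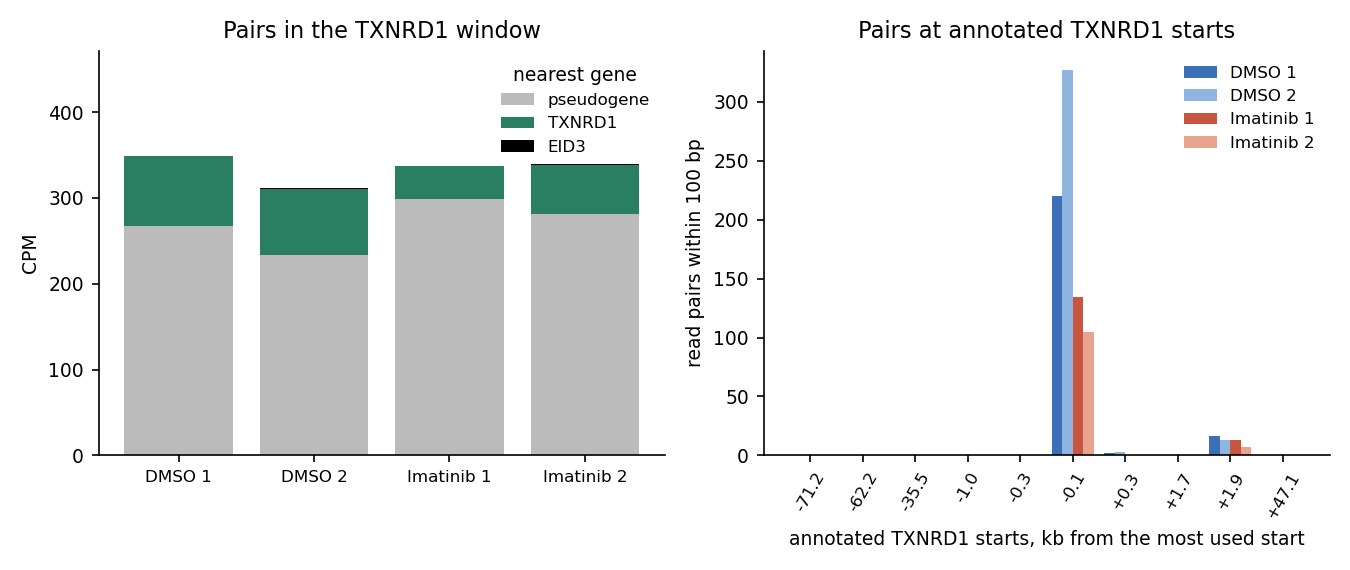
Left, CPM in the TXNRD1 window by the gene nearest to both ends, stacked, for each library; right, pairs within 100 bp of each group of annotated TXNRD1 starts, by distance from the most used start. The pseudogene took 75.1% to 88.7% of the window's pairs, and 786 pairs began at 1 group of starts.

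Gencode annotates 10 separate groups of TXNRD1 starts, and the K562 molecules used mainly 1. The start region chr12:104286938-104287054 held 742 pairs at positions with at least 3 pairs, with 207, 308, 129 and 98 in the 4 libraries. Counting every pair between its borders, 76.7%, 79.6%, 77.5% and 81.3% of the gene's own pairs began there in DMSO 1, DMSO 2, imatinib 1 and imatinib 2, and the Wilson intervals overlapped. Its most used base, 104287022, is the start of TXNRD1-214 and took 24.7% of the own pairs, and the next, 104287032, is also an annotated start and took 11.6%. The 30 bases around the first, chr12:104287007-104287036, are given with the start base in capitals.
TXNRD1 start: caaccctttcacctcAgttttcttcactcc
The region's log2 fold change was −0.67 ± 0.32 (edgeR adjusted p = 0.190). It was −0.98 without imatinib replicate 2 and −0.38 without imatinib replicate 1.

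The other annotated TXNRD1 promoters were little used or unseen. The 5 groups of annotated starts upstream, from 104215779 to 104286682, had 0 pairs in all 4 libraries, which allows up to 3 pairs or 0.306% of the gene's own pairs. A downstream start at 104288895, of TXNRD1-212, had 16, 13, 13 and 7 pairs within 100 bp. Start usage could be tested only between the main region and the pseudogene's region, so that it does not compare promoters of TXNRD1, and it gave an adjusted p of 0.103 (edgeR diffSpliceDGE). Of 3 members with more than 1 tested start region (TXNRD1, PRDX1 and CAT), none was called, 1 had an unadjusted p under 0.05, and none was called with limma's diffSplice, against 12.4% of 2300 genes.

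At the 3′ side, 604 pairs ran from the main TXNRD1 start to chr12:104350274-104350305, the annotated end of the gene. Another 28 pairs, 12 and 12 in DMSO and 2 and 2 in imatinib, ran from the same start to 104305202, which lies 3 bp before the end of EID3, a short gene nested in TXNRD1 on the same strand. Such molecules link the TXNRD1 promoter with the 3′ end of EID3, and at this site an AATAAA signal lies 17 nt upstream.
TXNRD1 end: aattaaaaggcattaataatATCCACGTGT
TXNRD1 to EID3 end: aaaaacaagttttggataccAAATTAAGGG
They stand at chr12:104350264-104350293 and chr12:104305183-104305212, with the genomic bases after the end in capitals. Of all pairs in the window, 17, 15, 2 and 4 ended at 104305202. Of the gene's own pairs, 15 of 279 and 15 of 401 did so in DMSO and 2 of 173 and 2 of 128 in imatinib, and the 95% Wilson intervals of these shares overlapped. Usage of the gene's 3 tested poly(A) sites, the pseudogene's end among them, gave an adjusted p of 0.145 (edgeR diffSpliceDGE). With the replicate number as a block it was 0.528. Of 5 members tested for poly(A) site usage, none was called, 1 had an unadjusted p under 0.05 and none was called with limma, against 0.929% of 3983 genes.

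TXN, the substrate of TXNRD1, had 931, 659, 504 and 828 CPM in DMSO 1, DMSO 2, imatinib 1 and imatinib 2. The second imatinib library lay between the DMSO libraries, and the log2 fold change of −0.26 ± 0.31 did not pass (edgeR adjusted p = 0.620). Without imatinib replicate 1 it was 0.076, so the direction rested on that library.

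TXN starts were spread over a broad promoter. The region chr9:110256438-110256902 held 98.2% of 10795 pairs, and its most used base, 110256536, took 12.1%. That base lies 29 bp upstream of the annotated start of TXN-202 at 110256507. The next most used TXN bases, 110256541 and 110256561, took 9.88% and 8.26% and also lie upstream of the annotated start. In PRDX2 too the most used base, chr19:12801830, lay upstream, 30 bp before the annotated start of PRDX2-201 at 12801800. There the annotated base was next in rank, with 14.8%. The letters from 20 bases before the upper start to 9 bases past the annotated one are shown, both start bases in capitals, because in both genes the upper start falls on the first letter of a run ataaa.
TXN starts: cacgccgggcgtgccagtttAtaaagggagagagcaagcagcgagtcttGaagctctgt
PRDX2 starts: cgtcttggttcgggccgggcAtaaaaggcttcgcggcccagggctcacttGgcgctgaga
They are chr9:110256498-110256556 and chr19:12801791-12801850, on the minus strand. Such a run resembles a TATA box, but the letters alone say nothing of a factor bound there. Within 3 nt of each site, the upper TXN start had 2095 pairs and the annotated one 2096, 19.4% each. The upper PRDX2 start had 36.7% and 31.8% of the gene's pairs in DMSO and 26.5% and 26.2% in imatinib, while the annotated one had 29.0% and 31.5% in DMSO and 37.1% and 39.5% in imatinib. Both imatinib libraries were lower at the upper start and higher at the annotated one. The balance of starts inside 1 region was not tested, as it was chosen after its values were seen.

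**Figure D3:**
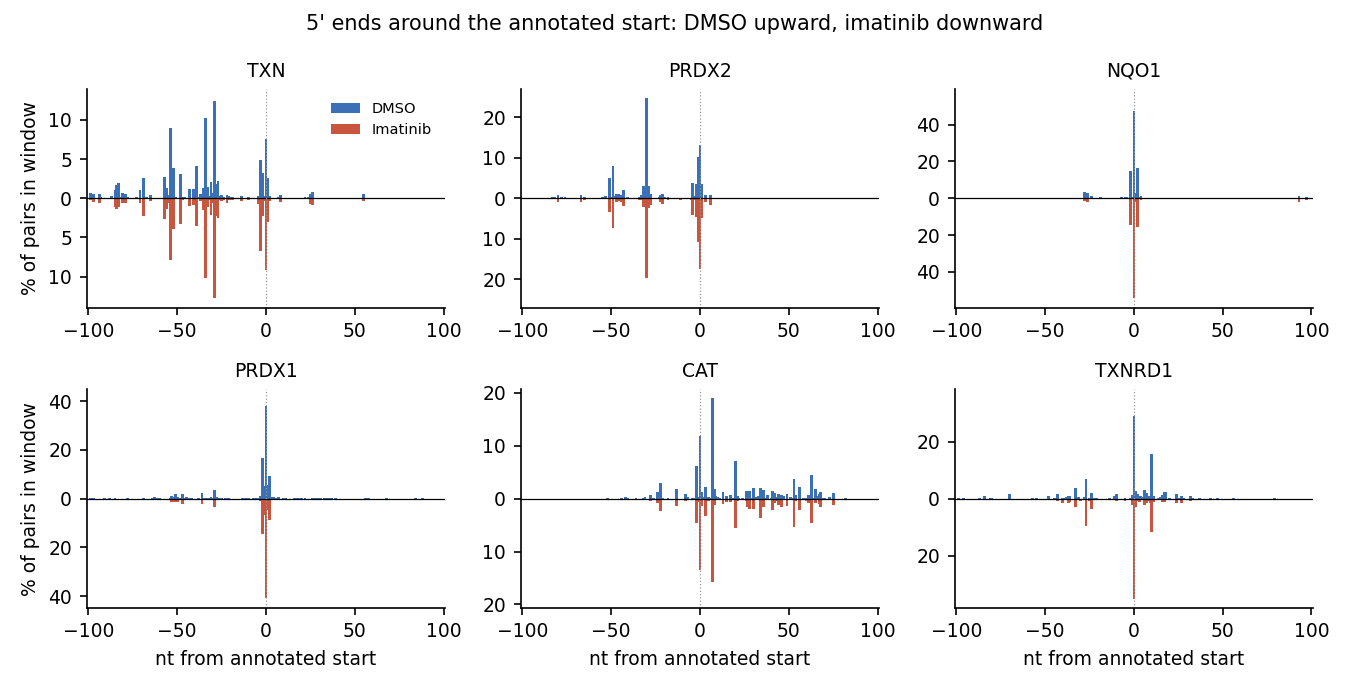
Share of 5′ ends (%, of pairs within 100 nt) by distance from an annotated start for 6 members, pooled DMSO libraries upward and pooled imatinib libraries downward. NQO1 and PRDX1 peak at the annotated base, TXN and PRDX2 also about 30 nt upstream.

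TXN molecules ended mainly at chr9:110244010-110244032, with 89.9% of the pairs. A minor site 45 bp upstream, before which no AATAAA or ATTAAA was found within 40 nt, took 6.92%, 8.41%, 6.59% and 4.41% of the pairs at the 3 sites in the 4 libraries. The second imatinib library was lowest, and usage did not pass (edgeR diffSpliceDGE adjusted p = 0.772).

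PRDX1 had 721 and 680 CPM in DMSO and 539 and 497 in imatinib, from 2495, 3536, 2437 and 1117 pairs. The log2 fold change of −0.44 ± 0.24 did not pass (edgeR adjusted p = 0.248). Its main start region chr1:45521687-45522022 held 89.8% of the pairs, with 34.8% on the annotated start base of PRDX1-202, 45521884. An upstream region at 45522850-45522890 had 36, 43, 41 and 3 pairs, low in imatinib replicate 2 alone, and 4 regions inside the gene had 58 to 109 pairs each. Usage of the 6 tested regions gave an adjusted p of 0.795 (edgeR diffSpliceDGE).

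PRDX1 also had a pair of poly(A) sites, 176 bp apart, of which the shorter form had neither AATAAA nor ATTAAA within 40 nt of its end and the longer had ATTAAA 11 nt before it. They are chr1:45511218-45511247 and chr1:45511042-45511071, minus strand, with the bases past the end in capitals.
PRDX1 upstream: aaacacaagacttcagattcAGCCGAATTG
PRDX1 downstream: tgtattaaacttgaactgagACCTTGATGA
The upstream site took 33.1% (95% Wilson interval 31.3 to 35.0) and 28.5% (27.04 to 30.03) of the pairs at both sites in DMSO and 23.0% (21.4 to 24.7) and 32.3% (29.6 to 35.1) in imatinib. The libraries differed beyond counting error within each condition, and the conditions overlapped (edgeR diffSpliceDGE adjusted p = 0.878). Molecules from the main promoter ended at both sites, with 5973 pairs at the downstream and 2571 at the upstream one.

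**Figure D4:**
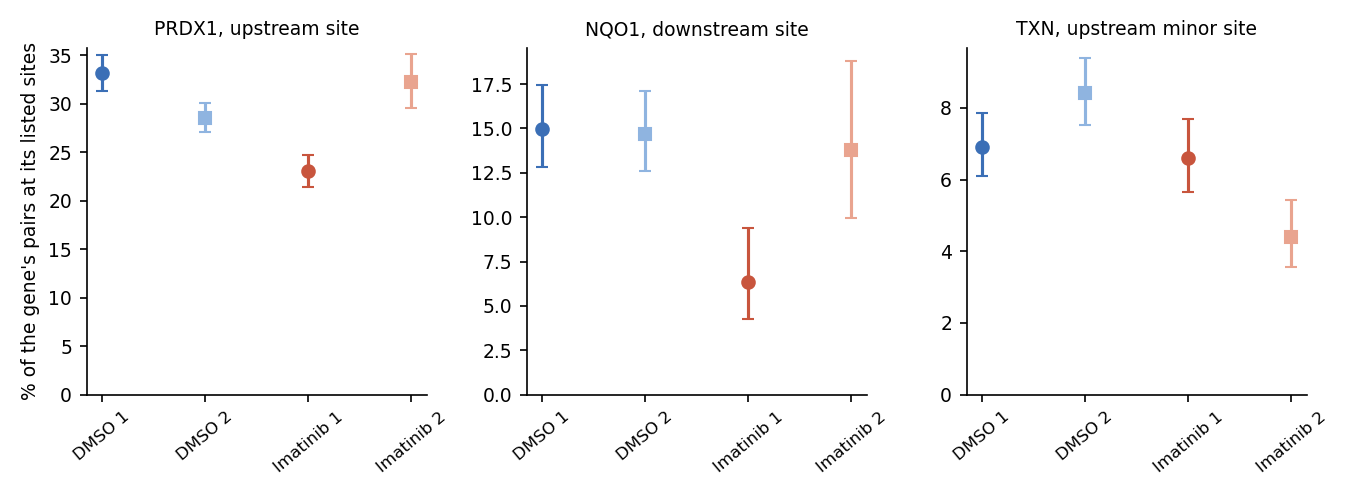
Share (%) of pairs ending at 1 poly(A) site among the listed sites of PRDX1, NQO1 and TXN in each library, with 95% Wilson intervals that cover counting error only. Imatinib replicate 1 was lowest for PRDX1 (23.0%) and NQO1 (6.37%), imatinib replicate 2 for TXN (4.41%).

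The imatinib libraries disagreed on PRDX2. It had 201 and 280 CPM in DMSO and 471 and 176 in imatinib, so 1 imatinib library was the highest and the other the lowest of the 4. The log2 fold change was 0.43 ± 0.42 (edgeR adjusted p = 0.521). Without imatinib replicate 1 it was −0.43, and without imatinib replicate 2 it was 0.94 with an adjusted p of 0.00623, so the direction and the call depend on which imatinib library is kept. Of 4681 pairs, 94.6% began in chr19:12801776-12801910 and 99.6% ended within 25 bp of 12796823, the annotated end.

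SRXN1 was sparse, with 9, 14, 4 and 14 pairs, and imatinib replicates 1 and 2 were the lowest and the highest at 0.885 and 6.22 CPM (log2 fold change 0.17 ± 0.78, edgeR adjusted p = 0.908). Without imatinib replicate 2 it was −1.58 with an adjusted p of 0.2, and with a window of 200 bp it was −0.19. Of its 41 pairs, 10 began at the annotated start base, chr20:653200, and 40 ended within 25 bp of 646626. The genome goes on there with 10 A in 10 bases, shown in capitals for chr20:646616-646645, minus strand.
SRXN1 end: aataaaagtttatttaatttAAAAAAAAAA
A run of genomic A can prime reverse transcription inside a longer RNA, and 92.7% of the SRXN1 pairs ended before 7 or more A in the next 10 bases. Keeping only pairs with fewer than 7 A and a span of 300 bp to 2 Mb left 2 of them. The end also carries AATAAA 14 nt upstream and lies 11 bp before the annotated end, and whether it is a poly(A) site or internal priming was not tested.

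The glutamate-cysteine ligase genes had few pairs. GCLC had 39, 95, 100 and 53, or 11.3 and 18.3 CPM in DMSO and 22.1 and 23.6 in imatinib. The log2 fold change of 0.61 ± 0.34 did not pass (edgeR adjusted p = 0.259). Of the gene's 11 annotated groups of starts, 2 had at least 20 pairs, with 209 pairs at 53545033-53545101 and 26 at 53544633-53544645. Counting only positions with at least 3 pairs, the start region chr6:53545006-53545101 held 74.4% and 69.5% of the gene's pairs in DMSO and 53.0% and 49.1% in imatinib. These shares leave out the 35.5% of the gene's pairs that lay outside any start region. Within 100 bp of the annotated starts at 53545033-53545101 there were 30 of 39 and 77 of 95 pairs in DMSO, and 66 of 100 and 36 of 53 in imatinib. Counted that way the conditions lay closer together. The other regions held 8 pairs or fewer each, so start usage could not be tested. By itself the region had a log2 fold change of 0.20 ± 0.39 (edgeR adjusted p = 0.776), and −0.082 without DMSO replicate 1. GCLC molecules ended at several sites between 53497344 and 53498336, the most used, chr6:53498269-53498274, with 45.3% of all the gene's pairs.

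Few GCLM pairs reached the promoter. The gene had 39, 45, 38 and 14 pairs, or 11.3 and 8.65 CPM in DMSO and 8.40 and 6.22 in imatinib (log2 fold change −0.40 ± 0.38, edgeR adjusted p = 0.503). Only 2 of the 136 pairs began within 100 bp of the annotated start of GCLM-201 at chr1:93909456, and 133 lay outside any start region, on 120 different 5′ positions in all. Of the pairs, 84.6% began in the last exon, and the median distance between the ends was 1034 bp. The 3′ ends were less scattered, with 49.3% within 25 bp of 93885202, next to the annotated end, and 26.5% within 25 bp of 93888457. The first site is followed by 7 A in 10 bases, and 41.2% of the GCLM pairs ended before 7 or more A. Among ends with fewer than 7 A the order turned, with 32 pairs at 93888449-93888459 and 22 at 93885203-93885206. In the other members with at least 100 pairs, 86.3% to 98.4% of the own pairs began within 200 bp of an annotated start. What these scattered 5′ ends are was not tested.

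GPX1 itself was not seen. The 26 pairs counted for it by the window, 6, 5, 9 and 6, all ended near chr3:49359148, at the end of the neighbouring gene RHOA, whose last exon lies within 1 kb of GPX1 on the same strand. Of these, 25 were nearest to RHOA and 1 to an unnamed gene, and 0 pairs in any library were nearest to GPX1 or began within 100 bp of its annotated starts. A count of 0 allows up to 3 pairs over the 4 libraries, by counting error only. The authors kept uniquely mapped pairs, and whether that removed GPX1 pairs was not tested. No change of GPX1 can be given.

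**Figure D5:**
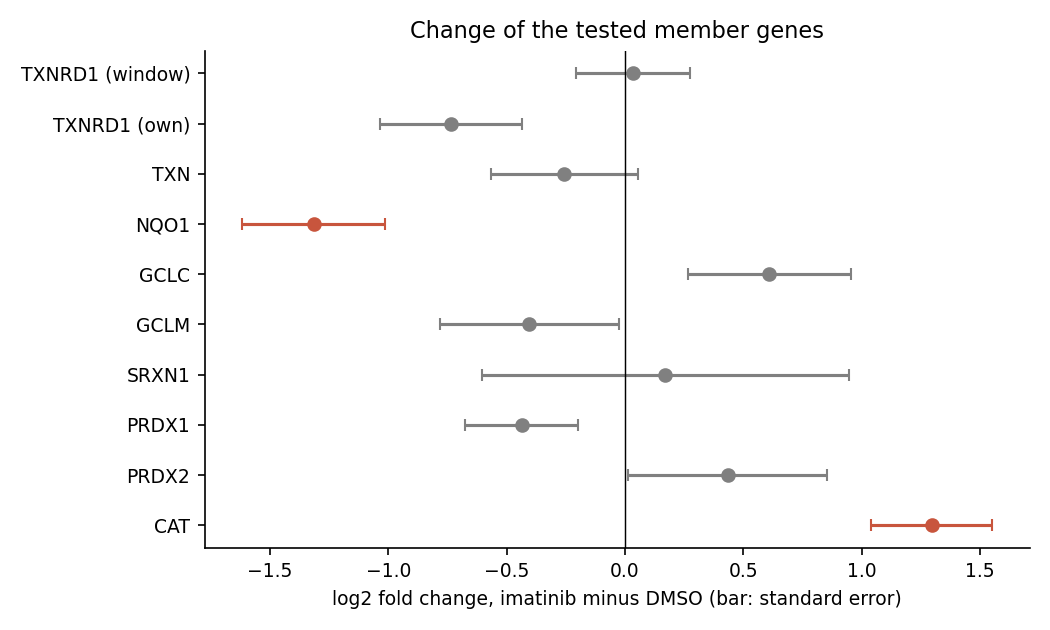
Log2 fold change, imatinib minus DMSO, of the 9 tested members with its standard error from edgeR, in red where the adjusted p was under 0.05. CAT lies at 1.30 and NQO1 at −1.32, and TXNRD1 moves from 0.034 to −0.73 when only its own pairs are counted.

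At the level of start regions, 14 regions of 7 members were tested, and 2, the main ones of CAT and NQO1, were called, against 13.5% of 13939 regions. The calls in start regions follow the same molecules as the gene counts and are no second measurement.

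The letters of the antioxidant response element, TGACNNNGC on either strand, were looked for in windows of 250 bases before to 50 after a start. They were found at the most used starts of TXNRD1 and PRDX1, 2 of 7 members with a start region of at least 20 pairs, while 13.3% of 35116 promoters of that length in RefSeq (GRCh38.p14) hold them. Both matches are on the strand opposite to the gene, and they begin 92 bases before the TXNRD1 start and 141 bases before the PRDX1 start. The matches are in capitals in the stretches chr12:104286920-104286948 and chr1:45522007-45522035.
TXNRD1 match: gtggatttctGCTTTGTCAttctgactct
PRDX1 match: gagggaaagcGCCGAGTCAttccggcggg
Neither gene passed the test for a change. The RefSeq table holds 10 windows of 9 members, of which 3, or 30.0%, hold a match. These are GCLM (chr1:93909381-93909680), with 1, and both windows of TXNRD1, with 1 near the main start and 2 at the far upstream start, chr12:104215529-104215828, which had no pairs. A match is a run of letters and not a shown binding site.

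The wider pathway was counted from a list of 78 other genes of thiol and glutathione chemistry, of which 66 had enough pairs. Of these, 7 were higher and 4 lower after imatinib by edgeR, against 8.69% and 6.15% of all genes, and their median log2 fold change was 0.24 against 0.027 over all genes. Without DMSO replicate 2, 1 was higher and 1 lower, and of the 11 calls 1, MGST1, was kept. Without DMSO replicate 1, 6 of the 11 were kept, and TXNIP, GLRX, GLRX3, PRDX5 and BLVRB were not. Without imatinib replicate 2, 13 were higher and 13 lower. A further 6 genes, HMOX1 among them, had no pair in any library.

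In the thioredoxin system 2 of 8 tested genes rose and 1 fell. TXNIP, which binds and inhibits thioredoxin, had 336 and 380 CPM in DMSO and 964 and 700 in imatinib (log2 fold change 1.22 ± 0.27, edgeR adjusted p = 0.0184). Glutaredoxin, GLRX, had 23.4 and 22.7 in DMSO and 60.4 and 63.6 in imatinib. GLRX3, a glutaredoxin of iron-sulfur cluster handling, fell from 234 and 245 to 80.1 and 144. In each of these 3 called genes the conditions did not overlap, and how often that held over all genes was not counted. Among the 4 other peroxiredoxins PRDX5 rose, from 197 and 124 to 347 and 315.

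Of 11 tested glutathione transferase genes 3 rose and 1 fell. MGST3, a membrane-bound transferase, went from 160 and 128 CPM to 393 and 463 (log2 fold change 1.57 ± 0.26, edgeR adjusted p = 0.00710), while MGST1, another of them, went from 224 and 211 to 82.5 and 61.3 (−1.59 ± 0.28, adjusted p = 0.00803). GSTM3 had 4.04 and 2.69 in DMSO and 13.0 and 13.8 in imatinib. MGST3 and MGST1 moved in opposite directions.

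NRF2's own gene NFE2L2 (0.40 ± 0.29, edgeR adjusted p = 0.387) and KEAP1 (0.13 ± 0.38, adjusted p = 0.847) did not pass. Among the 9 tested genes of NRF2 and its partners, MAFF, a small MAF protein, fell, with 21, 67, 7 and 0 pairs. Of 17 other NRF2 targets tested, BLVRB, biliverdin reductase B, rose from 618 and 604 CPM to 1660 and 1406, and NQO2, a relative of NQO1, fell from 194 and 211 to 87.6 and 76.5 (log2 fold change −1.30 ± 0.26, edgeR adjusted p = 0.0133). The genes of glutathione synthesis and reduction (0 of 8), methionine sulfoxide reductases and sestrins (0 of 5), superoxide dismutases (0 of 3) and the tested glutathione peroxidase, GPX4, gave no call.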

How the data were processed

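The data are 4 TIF-Seq2 tables of K562 cells, 2 of DMSO and 2 of imatinib. The deposited values are raw counts of read pairs per 5′ and 3′ position. Per the study's methods and the submitters' processing notes, the authors trimmed reads with cutadapt 1.16, aligned both ends separately to hg38 with STAR 2.5.3a, kept uniquely mapped pairs and removed PCR duplicates by molecular identifier. The long-read models deposited for the series, made with minimap2 2.16 and bedtools 2.27.1, and 3′T-fill were not used here.

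Pairs were summed per Gencode 44 gene (window 1 kb), start region (5′ positions with at least 3 pairs, joined within 100 bp) and 3′ region (fewer than 7 A in the next 10 nt, joined within 25 bp). A pair's nearest gene had the transcript with the least summed distance to both ends. Counts were tested with edgeR 4.0.16 (quasi-likelihood, robust, TMM, filterByExpr, total deposited pairs as library size) in R 4.3.3, usage with diffSpliceDGE, and p-values were adjusted by Benjamini-Hochberg over all features, with 0.05 as the threshold. Alternatives used DESeq2 1.42.0 and limma 3.58.1, other scaling, filters, windows and gaps, and left out each library. The tests were checked on simulated counts. Standard errors are of log2 fold changes. Depth was 2263121 to 5135829 pairs per library, and rare starts are limited by counting error. All 10 members are named, with start regions of at least 5% and 20 pairs, and at most 2 called genes per direction and group of the other list. Members and lists were chosen with earlier results of these data known. Some genes of the marker lists and a comparison of a pseudogene with another gene are not reported here.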

Additional observations from a re-analysis of the deposited data

How the results depend on the processing

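The main comparison called 1800 genes, 2 of them members. With the replicate number as a block it called 1148 genes and 0 members, and leaving out 1 library gave 820 to 3955 genes and 0 to 3 members. Without the low-count filter 2736 genes were called. Start regions called fell from 1879 to 1023 with the block and ran from 937 to 3686 without 1 library. Genes with changed start usage fell from 285 to 143 with the block and ran from 9 to 383 without 1 library. Genes with changed poly(A) site usage fell from 37 to 5 with the block, ran from 1 to 170 without 1 library and were 12 with limma. Same-numbered libraries did not deviate together (r = −0.236 across genes for the difference of replicate 1 from 2 in each condition). The study's methods name a corresponding DMSO control without stating which replicates belong together, and the main comparison left them unpaired. A crossed pairing, added after seeing the data, called 3723 genes.

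Directions turned in these cases, and the cause was not tested. TXNRD1 was −0.060 without DMSO replicate 2, −0.050 without the filter, −0.023 with DESeq2 and −0.73 with nearest-transcript counting, against 0.034. Leaving out 1 library gave −0.060 to 0.096 for TXNRD1, −0.68 to 0.076 for TXN, −1.58 to 1.23 for SRXN1 and −0.43 to 0.94 for PRDX2, and for start regions −0.082 to 0.53 for GCLC, −0.57 to 0.13 for TXN and −0.37 to 1.02 for PRDX2. SRXN1 was −0.19 with a window of 200 bp, against 0.17. Of 203 alternative values for single genes, regions and sites, 177 kept their direction and their side of the threshold, and 12 turned in direction. Another 10, all of CAT and NQO1 or their start regions, were no longer past it. The remaining 4 were newly past it, all without imatinib replicate 2, which leaves 1 imatinib library. These were PRDX2, its main start region, the main TXNRD1 start region and TXNRD1 poly(A) site usage. Depth limits SRXN1, GCLM, GCLC and every start with few pairs. With 2 libraries per condition, each call rests on a spread shared across genes.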
